A study of Mus musculus with 22 samples.

Results

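The comparison described here sets wild-type mouse embryonic stem (mES) cells beside wild-type cultures taken through an endoderm differentiation. It was defined by the labels alone, and it uses 5 of the 22 RNA-seq libraries of the series: 2 of wild-type mES cells and 3 of wild-type endoderm cultures. Both groups are labelled wild type, and the labels name no engineered allele in either. The mES cells grew in serum medium (10% FBS) with 100 ng/ml LIF, CHIR99021 at 3 µM to inhibit GSK-3 and PD0325901 at 1 µM to inhibit MEK, a mixture known as 2i and LIF. For the endoderm cultures about 50000 cells were plated in a B27 medium with 0.2% FBS. At 24 h and again at 72 h they received 100 ng/ml Activin A with 3 µM CHIR99021, and they were harvested at 120 h. CHIR99021 is thus common to both groups, whereas LIF and PD0325901 were given to the mES cells and Activin A to the endoderm cultures. The labels describe the endoderm samples as a mixture of cells, name neither a cell line nor a clone, and mention no sorting. They do not say that replicates came from separate cultures, so the p-values measure the spread between these libraries, which may be technical.

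Stem cells held in 2i and LIF are kept in naive pluripotency, the state of the epiblast before implantation, by a network of transcription factors that includes Nanog, Klf4, Esrrb and Tfcp2l1. When the inhibitors and LIF are removed, cells pass through a formative state, and Activin A, which signals through the Nodal receptors, together with Wnt activation directs them to a primitive-streak-like mesendoderm. Mesendoderm expresses T and Eomes and can give rise both to definitive endoderm, the precursor of the gut, marked by Sox17 and Foxa2, and to mesoderm.

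The counts came from 2 deposited tables, 1 for mES cells and 1 for endoderm cultures, and were joined by gene identifier, so any difference in the handling of the tables and the difference between the groups cannot be told apart. Total counts were 12.9 and 15.1 M (mega) in the mES libraries and 12.3 to 15.2 M in the endoderm libraries. Levels are given as CPM, the count divided by the library total in M. Replicates differed by more than counting noise, the chi-square divided by its degrees of freedom being 1.55 between the mES libraries and 3.03 to 6.26 between endoderm libraries. Mitochondrial genes took 0.929 to 0.981% of the counts in mES cells and 1.11 to 1.25% in endoderm cultures, and ribosomal protein genes 7.45 to 7.56% and 10.5 to 10.7%. Malat1, a nuclear long noncoding RNA, was at 78.8 to 80.5 CPM in mES cells and 177 to 262 CPM in endoderm cultures. Whether these differences in library composition bear on the comparisons was not tested.

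The transcriptomes of the cultures differed at most genes. Of 15414 genes with enough counts to test, 12650 differed at an adjusted p under 0.05 by edgeR's quasi-likelihood test with Benjamini-Hochberg adjustment, which is 82.1% of them. The calls divided into 6582 genes higher in endoderm cultures (42.7% of those tested) and 6068 lower (39.4%). Counts of calls in the gene lists below are to be read beside these shares. Listed genes with no more than 3 counts in either mES library could, where tested, only be called higher. Since 48.1% of all calls were of less than 2-fold, the size of a change separates genes more than the call does. A change of at least 4-fold was seen for 2423 genes that were higher (15.7%) and 1210 that were lower (7.85%). At 64-fold or more the numbers were 561 and 98. The median log2 fold change, endoderm over mES, was 0.06 over all genes tested, and it was 0.18 when the libraries were scaled by total counts alone. Genes close to these medians therefore have no secure direction. The libraries of the groups did not overlap in CPM at 13446 genes (87.2%). Among genes with no more than 3 counts in either mES library, 897 were called higher in endoderm cultures, and 147 of those reached a mean of 10 CPM. In the other direction 283 genes with no more than 3 counts in every endoderm library were called lower, and 9 of them had a mean of 10 CPM or more in mES cells.

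**Figure D1:**
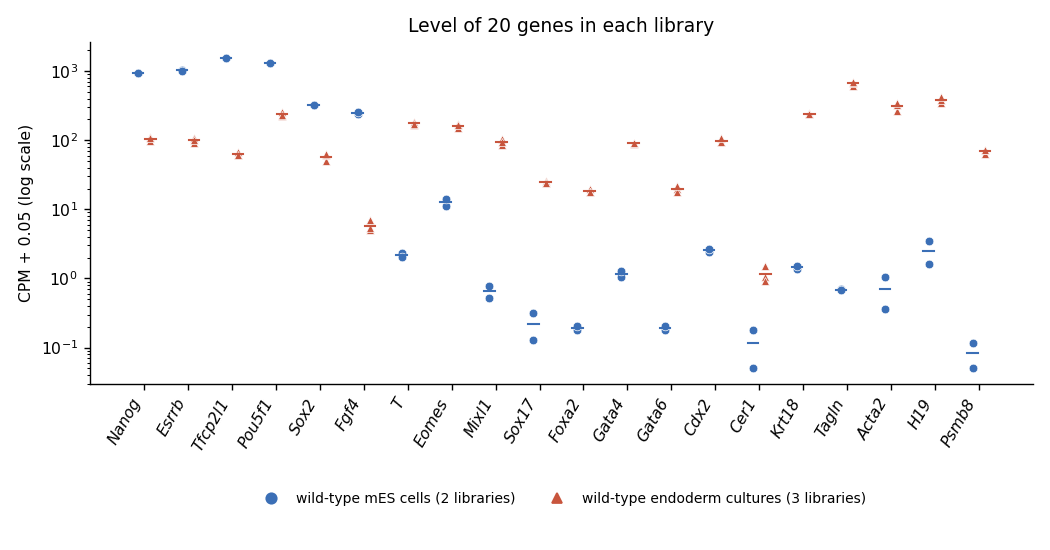
Level of 20 genes in each library, as CPM + 0.05 on a log axis, with circles for the 2 mES libraries, triangles for the 3 endoderm libraries and bars for group means. The 6 pluripotency genes on the left are higher in the mES libraries and the other 14 genes higher in the endoderm libraries, with no overlap for any of the 20.

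The genes with the smallest p-values among changes of at least 4-fold were, on the side of the endoderm cultures, the imprinted genes Peg3 and Peg10, the actin-binding genes Tpm1 and Tagln, Amot, the keratin Krt18, the heparan sulphate proteoglycan Gpc3, the peroxidase Pxdn, the amyloid precursor App and the basement membrane collagen Col4a1. Amot, which encodes angiomotin, a junction protein that binds the Hippo effector Yap, was measured at 2.12 and 1.63 CPM in the mES libraries and 832, 762 and 739.7 CPM in the endoderm libraries (log2 fold change 8.55, SE 0.108, adjusted p 1.3e-18). Tpm1, a tropomyosin, was at 48.5 and 45.8 CPM in the mES libraries and 1865, 1962 and 2001 CPM in the endoderm libraries (log2 fold change 5.24, SE 0.0694, adjusted p 2.2e-18). In both genes each endoderm library lay far above each mES library. On the side of the mES cells the 10 genes were Tfcp2l1, Spp1, Calcoco2, Jam2, Laptm5, Cobl, AU018091, Trpm1, Ass1 and Mt2. Spp1, the secreted phosphoprotein osteopontin, stood at 538 and 536 CPM in the mES libraries and 10.8, 11.01 and 8.97 CPM in the endoderm libraries (log2 fold change -5.83, SE 0.06897, adjusted p 1.3e-18). Calcoco2, an autophagy receptor, stood at 217 and 215 CPM in the mES libraries and 1.46, 1.52 and 1.39 CPM in the endoderm libraries (log2 fold change -7.33, SE 0.0882, adjusted p 1.3e-18). Their endoderm levels were a small part of the mES levels in each library.

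Among called genes with a mean of at least 20 CPM in endoderm cultures, the 10 with the largest fitted log2 fold changes had no count in the mES libraries, and their order depends on the prior count of the fit. Vstm2b, Foxq1, Tmprss2 and Wnt4 led them, at means of 59.1 ± 7.55, 56.3 ± 1.72, 51.95 ± 7.36 and 41.8 ± 4.39 CPM (SD, n = 3) in endoderm cultures. Against a floor of 3 counts per mES library these were at least 273-fold, 260.2-fold, 240.3-fold and 194-fold higher. Foxq1 is a forkhead transcription factor, Tmprss2 a membrane serine protease of epithelia and Wnt4 a secreted Wnt ligand. Klhl6, Hoxa11, Hoxd11, the zinc transporter gene Slc39a8 and the Hoxa antisense RNA gene Hoxaas3 were among those that followed, from 40.8 down to 26.97 CPM. In the other direction Khdc3, whose protein belongs to the maternal complex of the egg, was at 96.4 and 96.7 CPM in the mES libraries and 0.162, 0.06595 and 0.0729 CPM in the endoderm libraries (log2 fold change -9.95, SE 0.159, adjusted p 1.6e-17). Next came Myo1f, 2310043M15Rik, Accsl, Bhmt, Spic, Trpm1, Calcoco2, Laptm5 and Ankrd35. Of these, Spic encodes an Ets-family transcription factor and was at 22.8 and 23.5 CPM against 0.162, 0.132 and 0 CPM.

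Among the genes with the most counts, Eef1a1, the translation elongation factor, had the highest level in both cultures, at 12457 and 12423 CPM in the mES libraries and 21079, 21045 and 21137 CPM in the endoderm libraries (log2 fold change 0.64, SE 0.0483, adjusted p 2.6e-09). Eef2, which moves the ribosome along the message, rose as well, from 3989 ± 44.4 to 7404 ± 442 CPM (log2 fold change 0.77). The chaperone gene Hsp90ab1 and the glycolytic gene Gapdh, both often used as references, fell from 8312 ± 14.9 to 6902 ± 138 CPM and from 4387 ± 151 to 2697 ± 164 CPM (log2 fold changes -0.39 and -0.82). Hsp90aa1, also among the 10 genes with the most counts in mES cells, fell by more (log2 fold change -1.86).

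**Figure D2:**
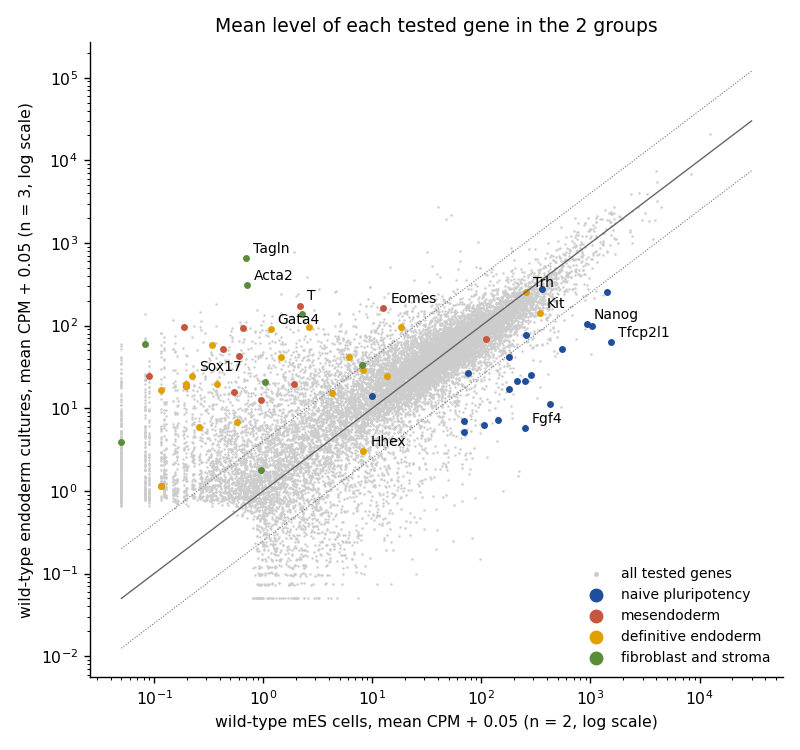
Mean CPM + 0.05 of each tested gene in mES cells (x axis, n = 2) and endoderm cultures (y axis, n = 3), both on log axes; colours mark tested members of 4 lists, the solid line equal levels and the dotted lines 4-fold differences. Naive pluripotency genes lie mostly below the lower dotted line, while mesendoderm, definitive endoderm and stromal genes lie mostly above the upper one.

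Naive pluripotency genes were lower in the endoderm cultures with 1 exception. Of 20 tested genes 19 fell, against 39.4% of all genes tested, and the list's median log2 fold change was -3.50 against 0.06 for all genes. The summed level of the list went from 8334 ± 43.4 to 1145 ± 56.1 CPM (SD, n = 2 and 3). Nanog (ENSMUSG00000012396, chromosome 6, 122707489 to 122714633), a homeobox factor of the network, was measured at 921 and 924 CPM in the mES libraries and 96.8, 111 and 107 CPM in the endoderm libraries (log2 fold change -3.26, SE 0.0577, adjusted p 4.7e-17). Tfcp2l1, the factor with the smallest p in the whole table, was at 1544 and 1552 CPM in the mES libraries and 60.4, 66.6 and 61.9 CPM in the endoderm libraries (log2 fold change -4.74, SE 0.05595, adjusted p 1.3e-18). Esrrb, an orphan nuclear receptor, was at 1030.4 and 1015 CPM in the mES libraries and 91.3, 108 and 102 CPM in the endoderm libraries (log2 fold change -3.47, SE 0.0615, adjusted p 4.7e-17). All 3 factors were several-fold lower in each endoderm library, yet stayed well above zero. The level left in endoderm cultures, as a share of the mES level, ran from 2.298% for Fgf4 to 77.005% for Sall4 among the 19 genes that fell, with a median of 9.45%. Klf4 kept 8.93%, Zfp42 (Rex1) 9.41%, Klf5 23.2% and Tbx3, which also acts in mesoderm and endoderm, 30.4%. In bulk RNA a smaller number of expressing cells and less RNA per cell cannot be told apart. Dppa3 (Stella), a gene of the early embryo and the germline, was the member called higher, from 9.97 ± 0.957 to 13.9 ± 1.65 CPM (log2 fold change 0.37, SE 0.1304, adjusted p 0.0165). This call was lost without mES replicate 1 (adjusted p 0.1602), without endoderm replicate 2 (0.0854), by DESeq2 (0.115) and on thinned counts (0.0563).

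Genes shared by naive and later pluripotent states fell less far. Of 14 tested genes 13 fell, with a list median of -2.59. Pou5f1 (Oct4), the central POU-domain factor, was at 1308 and 1301 CPM in the mES libraries and 222, 257 and 232 CPM in the endoderm libraries (log2 fold change -2.58, SE 0.0575, adjusted p 5.1e-16). Sox2, its partner, was at 319 and 324 CPM in the mES libraries and 49.5, 61.5 and 62.8 CPM in the endoderm libraries (log2 fold change -2.59, SE 0.0741, adjusted p 8.8e-15). Both kept 18.2% and 18.02% of their mES levels, more than most naive genes. Foxd3, a forkhead factor needed for stem cell maintenance, kept 3.06%, and Utf1 71.02%, the lowest and the highest shares among those that fell. Lin28a, an RNA-binding protein that blocks let-7 maturation, rose from 87.1 ± 1.203 to 240.3 ± 4.99 CPM (log2 fold change 1.34, SE 0.0532, adjusted p 5.5e-13).

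Genes of formative and primed pluripotency moved the opposite way. Of 15 tested genes 12 rose, against 42.7% of all genes, and the median log2 fold change was 1.99. Fgf5, the classical marker of the post-implantation epiblast, was at 0.0664 and 0 CPM in the mES libraries and 24.7, 22.6 and 18.5 CPM in the endoderm libraries (pooled ratio 609, interval 109 to 24096, a ratio of CPM over pooled replicates with a 95% counting interval). Sox11 went from 1.402 ± 0.105 to 142 ± 4.57 CPM (log2 fold change 6.54, SE 0.111, adjusted p 3.2e-17), and Otx2, a head and epiblast homeobox factor, from 6.098 ± 0.8298 to 41.8 ± 4.17 CPM (log2 fold change 2.66, SE 0.122, adjusted p 3.8e-12). Etv1 fell (log2 fold change -1.45) and Pou3f1 (Oct6), at means of 1.32 CPM in mES cells and 1.15 CPM in endoderm cultures, did not pass the test. The de novo methyltransferase gene Dnmt3b passed it by a small amount, from 166 ± 0.0822 to 199.9 ± 7.29 CPM (log2 fold change 0.15, SE 0.0509, adjusted p 0.0135). That call was lost without mES replicate 1 or 2 (adjusted p 0.0811 and 0.125) and by DESeq2 (0.0646).

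Mesendoderm genes were among the most changed. Of 13 tested genes 12 rose, and the median log2 fold change was 6.09. T (brachyury, ENSMUSG00000062327, chromosome 17, 8434423 to 8442496), the T-box factor of the primitive streak, was at 2.26 and 2.02 CPM in the mES libraries and 185, 168 and 171 CPM in the endoderm libraries (log2 fold change 6.21, SE 0.106, adjusted p 3.2e-17). Eomes, the T-box factor required for definitive endoderm, was at 11.3 and 13.9 CPM in the mES libraries and 171, 151 and 163 CPM in the endoderm libraries (log2 fold change 3.57, SE 0.0887, adjusted p 1.7e-15). Mixl1, a homeobox factor of the streak, was at 0.7304 and 0.466 CPM in the mES libraries and 104.9, 85.2 and 92.9 CPM in the endoderm libraries (log2 fold change 7.13, SE 0.176, adjusted p 1.6e-15). All 3 streak genes were thus high in each endoderm library at collection, and their ranges did not approach those of the mES libraries. Gsc, a homeobox gene of the organizer, reached 19.8 ± 2.66 CPM and Evx1, a gene of the posterior streak, 43.1 ± 8.49 CPM (SD, n = 3). The ligand genes Fgf8, from 0.138 to 95.1 CPM (log2 fold change 9.17), and Wnt3, from 0.377 to 51.95 CPM (log2 fold change 7.02), rose as well. Nodal, the ligand whose receptors Activin A also engages, was the member that fell, from 111 ± 4.22 to 67.9 ± 5.12 CPM (log2 fold change -0.83, SE 0.0667, adjusted p 6.0e-09). Mesp1 and Mesp2, factors of nascent mesoderm, were too low to test, at 0.401 and 0.674 CPM in endoderm cultures.

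Definitive endoderm genes were set beside the endoderm label. Their list was chosen with earlier results of these data known, so it is no independent check of that label. Of 20 tested genes 17 rose, against 42.7% of all genes, with a median of 4.12, or 4.09 with genes at the mES floor held at their lower bounds. Sox17 (ENSMUSG00000025902, chromosome 1, 4490931 to 4497354), an HMG-box factor of endoderm, was at 0.266 and 0.0777 CPM in the mES libraries and 25.5, 23.9 and 24.1 CPM in the endoderm libraries (log2 fold change 6.90, SE 0.248, adjusted p 1.6e-13). Foxa2, a forkhead factor of endoderm and axial mesoderm, was at 0.133 and 0.155 CPM in the mES libraries and 19.96, 17.9 and 18.02 CPM in the endoderm libraries (log2 fold change 6.81, SE 0.267, adjusted p 4.7e-13). Gata4, a zinc-finger factor of endoderm and heart, was at 0.996 and 1.24 CPM in the mES libraries and 89.2, 90.9 and 91.4 CPM in the endoderm libraries (log2 fold change 6.21, SE 0.122, adjusted p 1.3e-16). These factors were close to absent in mES cells and present in each endoderm library. Foxa1 reached 16.5 ± 1.89 CPM (pooled ratio 228, interval 62.99 to 1890.1), Gata6 19.6 ± 1.77 and Cxcr4, the chemokine receptor often used to sort definitive endoderm, 41.2 ± 3.31 CPM (n = 3). Their log2 fold changes were 6.89 for Gata6 and 4.79 for Cxcr4. Other members did not follow. The receptor gene Kit fell from 345 ± 14.7 to 142.7 ± 3.87 CPM (log2 fold change -1.40, SE 0.04904, adjusted p 1.1e-13). Hhex, an anterior endoderm homeobox gene, fell from 8.19 ± 0.506 to 2.99 ± 0.338 CPM (log2 fold change -1.56, SE 0.168, adjusted p 2.3e-07). Trh, the gene of thyrotropin-releasing hormone, stood at 263 and 248 CPM against 264, 258 and 246 CPM, where the libraries of the groups overlapped. It passed the test as lower (log2 fold change -0.12, SE 0.0521, adjusted p 0.0403), but the log2 fold change was 0.00186 on total counts. Without mES replicate 1 or endoderm replicate 2 or 3 the adjusted p was 0.423, 0.101 and 0.0706, and 0.0769 with the replicate number as a block, so no difference in Trh is claimed. Cer1, a secreted antagonist of anterior endoderm, reached 1.11 ± 0.31002 CPM.

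Genes that later pattern the gut gave a mixed picture. Of 14 tested regional factors 11 rose and 2 fell, with a median of 4.09, or 2.86 with floor genes at their bounds. Of the 20 listed factors 11 had no more than 3 counts in either mES library, and such genes could only be called higher. With at least 10 counts in every library the median was -0.26. Cdx2, the posterior gut and tail bud homeobox gene, was at 2.39 and 2.64 CPM in the mES libraries and 94.3, 94.1 and 108 CPM in the endoderm libraries (log2 fold change 5.17, SE 0.124, adjusted p 1.2e-15). Its relative Cdx1 fell from 25.7 ± 1.34 to 4.31 ± 0.1601 CPM (log2 fold change -2.69, SE 0.117, adjusted p 1.9e-12). Mnx1 reached 7.15 ± 0.691 CPM, Prox1 9.39 ± 0.902 CPM and Pax9, a pharyngeal pouch gene, 4.63 ± 0.989 CPM. Nkx2-1 (lung and thyroid), Pdx1 (pancreas) and Nkx2-3 were too low to test, with endoderm means of 0.04397, 0.0757 and 0 CPM. Among secreted and absorptive proteins of visceral endoderm and liver 11 of 14 tested genes rose and 3 fell, with a median of 2.73, or 2.06 bounded. Apob, the structural apolipoprotein, was at 0.797 and 0.622 CPM in the mES libraries and 101, 98.3 and 80.5 CPM in the endoderm libraries (log2 fold change 6.88, SE 0.178, adjusted p 2.7e-15). The endocytic receptor gene Cubn rose from 0.111 ± 0.06297 to 26.5 ± 3.001 CPM and the trypsin inhibitor gene Spink1 from 0.394 ± 0.006897 to 48.8 ± 8.41 CPM (log2 fold change 6.79). Apoe (-0.31), Apom (-1.76) and Trf (-3.20) fell. Afp and Alb, the defining serum proteins of visceral endoderm and liver, were at or near zero in endoderm cultures, at 0.201 and 0 CPM.

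Markers of other lineages rose beside the endoderm genes. Among genes of fibroblasts and stroma 8 of 8 tested rose, with a median log2 fold change of 7.27, or 5.04 bounded. Of the 12 listed genes 6 had no more than 3 counts in either mES library, so those among them that were tested could only be called higher. The list summed to 13.8 and 13.3 CPM in the mES libraries and 1079.9, 1267 and 1339 CPM in the endoderm libraries. Most of the endoderm sum came from Tagln and Acta2, which also belong to the actin cytoskeleton group described under the other observations. Tagln (transgelin, ENSMUSG00000032085, chromosome 9, 45929619 to 45936058), a smooth muscle and stromal actin-binding protein, was at 0.664 and 0.622 CPM in the mES libraries and 607, 674 and 705 CPM in the endoderm libraries (log2 fold change 9.86, SE 0.137, adjusted p 2.9e-18). Acta2, smooth muscle actin, was at 0.996 and 0.311 CPM in the mES libraries and 262, 319 and 348 CPM in the endoderm libraries (log2 fold change 8.69, SE 0.2105, adjusted p 1.3e-15). Col1a1, a fibrillar collagen of connective tissue, was at 1.79 and 2.64 CPM in the mES libraries and 106, 145 and 164 CPM in the endoderm libraries (log2 fold change 5.86, SE 0.226, adjusted p 3.7e-13). The endoderm libraries were high for each of these genes and the mES libraries near zero. Col3a1 reached 59.3 ± 5.29 CPM and Postn 3.87 ± 0.986 CPM. Dcn, Lum, Fap and S100a4, markers of differentiated fibroblasts, stayed too low to test, at 0.415, 0.0243, 0 and 0.0977 CPM. On the length-scaled FPKM values of the endoderm table, Tagln averaged 488 and Acta2 184 FPKM, against 92.8 for T, 30.7 for Gata4, 16.5 for Sox17 and 8.93 for Foxa2. What part cells outside the endoderm lineage play in the other changes was not tested.

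Of the 14 tested genes of lateral and extraembryonic mesoderm 12 rose and none fell (median 4.56, 4.19 bounded), against 42.7% and 39.4% of all genes tested. Of the 15 listed genes 7 had no more than 3 counts in either mES library. Those among them that were tested could only be called higher. Bmp4, a BMP ligand of posterior and extraembryonic mesoderm, was at 8.23 and 6.61 CPM in the mES libraries and 156, 141 and 157 CPM in the endoderm libraries (log2 fold change 4.21, SE 0.0972, adjusted p 7.6e-16). Pmp22 rose from 0.321 ± 0.0149 to 182 ± 9.65 CPM (log2 fold change 8.98, SE 0.147, adjusted p 2.0e-17), and Prrx1, a homeobox factor of limb and lateral mesenchyme, reached 24.8 ± 3.66 CPM. Foxf1 and Hand2 had no counts in mES cells and reached 5.01 ± 1.23 and 3.89 ± 0.646 CPM. Of the 12 tested presomitic and somitic genes 11 rose and none fell (median 4.71), against the same shares of all genes. Here 9 of the 17 listed genes had no more than 3 counts in either mES library, with the same limit on their direction. Msgn1, a presomitic bHLH factor, was at 0.133 and 0 CPM in the mES libraries and 19.2, 18.2 and 21.6 CPM in the endoderm libraries (pooled ratio 274, interval 75.7 to 2268). Tbx6 reached 15.7 ± 2.54 CPM, the Notch ligand gene Dll3 46.2 ± 5.36 CPM and Meox1 18.1 ± 0.629 CPM. Ripply2, Uncx and Pax1, which mark later somites, were too low to test.

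Parietal endoderm genes rose in 13 of 15 cases (median 3.30). Col4a1, a basement membrane collagen, was at 15.1 and 13.7 CPM in the mES libraries and 525, 514 and 489.998 CPM in the endoderm libraries (log2 fold change 5.02, SE 0.0727, adjusted p 4.4e-18). Dab2, an endocytic adaptor, rose from 0.898 ± 0.0492 to 101 ± 13.9 CPM (log2 fold change 6.67, SE 0.181, adjusted p 4.7e-15) and the hormone receptor gene Pth1r from 0.238 ± 0.227 to 30.7 ± 1.61 CPM (log2 fold change 6.76, SE 0.241, adjusted p 1.4e-13). Lamc1 fell (-1.13). Trophoblast genes were divided, with 8 of 12 tested genes higher and 4 lower, where 42.7% and 39.4% of all genes tested were. Cdx2, Eomes and Bmp4 are among the higher ones and also belong to the lists above. Gata3 and Krt7 rose too, to endoderm means of 7.06 and 5.58 CPM. Gata2, Tfap2a, Tfap2c and Ascl2 fell, and the placental hormone and surface genes Prl3d1, Prl2c2 and Tpbpa had no counts in the endoderm libraries. Of 9 tested neural genes 5 rose and 3 fell, where 42.7% and 39.4% of all genes tested did. Of the 17 listed neural genes 11 had no more than 3 counts in either mES library. Those among them that were tested could only be called higher. The neural median was 2.37 with floor genes at their bounds, but -2.34 with at least 10 counts in every library, so the list has no secure direction. Sox1, the earliest neural plate factor, fell from 3.72 ± 0.6495 to 0.174 ± 0.0607 CPM (log2 fold change -4.51, SE 0.377, adjusted p 9.5e-09), and the neuronal tubulin gene Tubb3 fell from 97.1 ± 3.45 to 5.02 ± 0.591 CPM (log2 fold change -4.39, SE 0.0895, adjusted p 1.9e-16). Pax3, Irx3 and Sox3 rose, to 9.09, 4.799 and 9.49 CPM.

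Cardiac genes were low in endoderm cultures. Of 9 tested 4 rose and 3 fell, shares near the 42.7% and 39.4% of all genes tested. The highest endoderm mean among those that rose was 5.22 CPM for Tnnt2. Ttn, the giant sarcomeric protein gene, fell from 56.4 ± 1.79 to 0.631 ± 0.0411 CPM (log2 fold change -6.58, SE 0.1397, adjusted p 3.1e-16). Among 10 tested endothelial and blood genes 6 rose and 3 fell, against the same shares of 42.7% and 39.4%. Flt1, a VEGF receptor gene, was at 0.332 and 0.155 CPM in the mES libraries and 88.3, 79.4 and 78.3 CPM in the endoderm libraries (log2 fold change 8.18, SE 0.1798, adjusted p 4.4e-16), while Pecam1 fell from 117 ± 0.0837 to 9.38 ± 0.826 CPM (log2 fold change -3.76, SE 0.0757, adjusted p 1.7e-16). Cdh5, the defining cadherin of endothelium, reached 1.72 ± 0.152 CPM, and the embryonic globin genes Hbb-bh1 and Hba-x were at 0 and 0.0243 CPM.

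**Figure D3:**
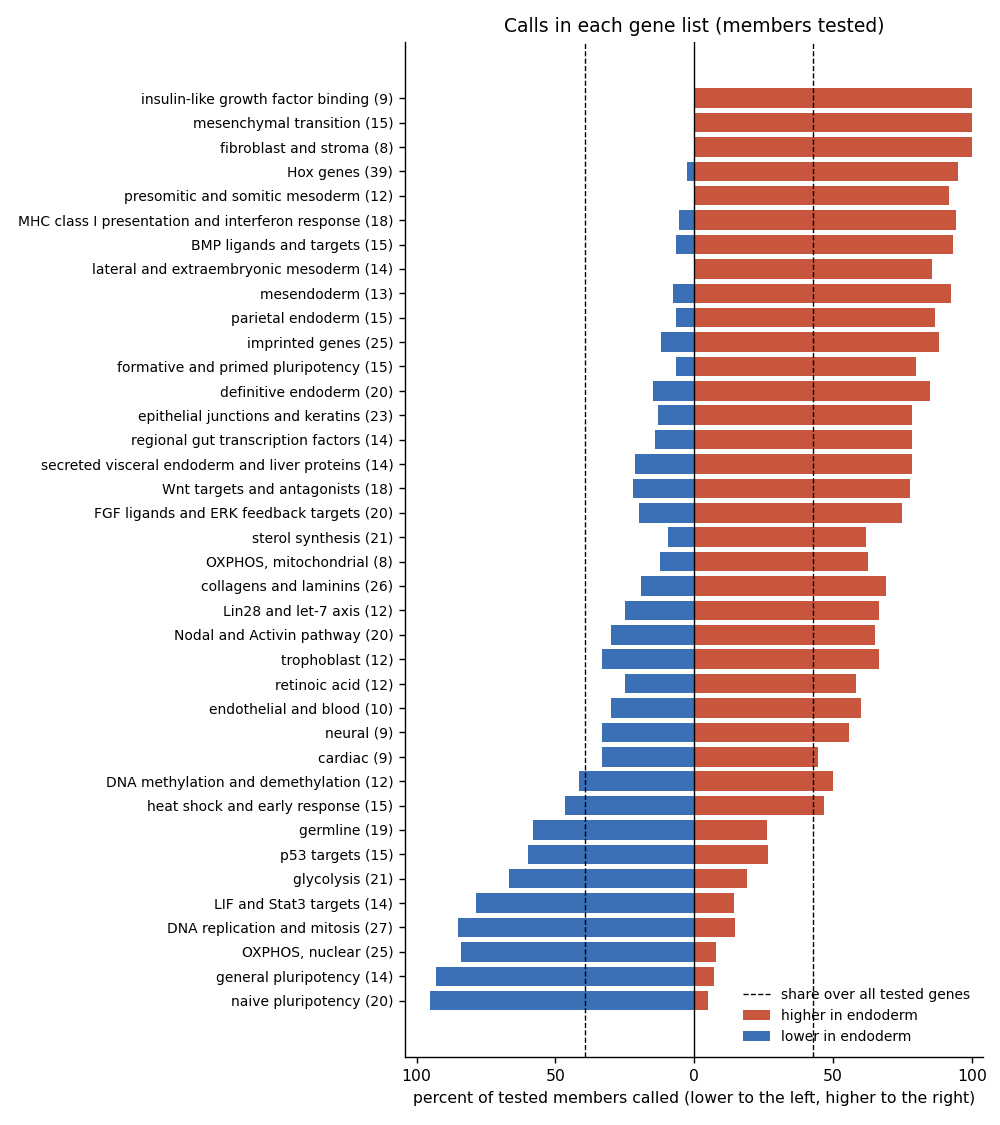
Share of the tested members of each list with at least 8 tested genes that were called higher (right) or lower (left) in endoderm cultures, in percent, with the number tested in brackets. Dashed lines give the shares over all genes tested, 42.7% higher and 39.4% lower; mesenchymal, stromal and insulin-like growth factor lists reach the right edge, and naive and general pluripotency come closest to the left.

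Hox genes, the clustered homeobox genes that specify position along the body axis, were raised across all 4 clusters. Of the 39 genes 37 rose, Hoxb13 fell and Hoxc13 did not pass the test. The median log2 fold change was 6.79, or 5.33 with genes at the mES floor held at their bounds. Of the 39 genes, 22 had no more than 3 counts in either mES library. Cluster sums in endoderm cultures were 253 ± 18.2 CPM for Hoxa, 162 ± 8.88 for Hoxb, 136 ± 1.04 for Hoxc and 309 ± 6.003 for Hoxd (SD, n = 3). In mES cells the same clusters held at most 4.65, 9.36, 18.8 and 2.92 CPM. Anterior, central and posterior members were all raised: paralogs 1 to 4 summed to 224 ± 12.6 CPM, paralogs 5 to 9 to 324 ± 12.3 CPM and paralogs 10 to 13 to 309.9 ± 12.8 CPM. By length-scaled FPKM the highest members in endoderm cultures were Hoxd9 (30.1), Hoxa10 (29.7), Hoxa9 (28.3) and Hoxc10 (25.2), all of the central and posterior groups. Hoxa9 was at 0.0664 and 0.0777 CPM in the mES libraries and 67.1, 81.8 and 68.6 CPM in the endoderm libraries (pooled ratio 1019.5, interval 282 to 8422). Hoxd11 (ENSMUSG00000042499, chromosome 2, 74682323 to 74684168) was at 0 and 0 CPM in the mES libraries and 31.2, 35.02 and 37.7 CPM in the endoderm libraries (at least 160.3-fold higher). Hoxd13, at the posterior end of its cluster, was at 0.9296 and 0.933 CPM in the mES libraries and 46.5, 45.1 and 41.5 CPM in the endoderm libraries (log2 fold change 5.44, SE 0.155, adjusted p 8.5e-15). Members of every region of the clusters were thus detected in each endoderm library.

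The Hox counts of mES cells were concentrated in a few genes. Hoxc13 was at 11.2 and 9.64 CPM against 10.6, 8.903 and 9.85 CPM, with overlapping libraries. Hoxb9 was at 6.37 and 6.06 CPM against 31.1, 27.1 and 26.99 CPM (log2 fold change 2.06, SE 0.1195, adjusted p 8.0e-11) and Hoxc12 at 4.12 and 4.197 CPM against 6.895, 6.07 and 7.44 CPM (log2 fold change 0.58, SE 0.1695, adjusted p 0.00476), a call that DESeq2 did not make (adjusted p 0.0634). Hoxb13 was at 1.99 and 1.399 CPM against 0.324, 0.923 and 0.365 CPM (log2 fold change -1.73, SE 0.4098, adjusted p 0.00101). Apart from Hoxb9 these mES transcripts lie at the posterior ends of the Hoxb and Hoxc clusters. Hoxa3 to Hoxa7, Hoxb2, Hoxb3, Hoxb5, Hoxb6, Hoxd3 and Hoxd4 overlap antisense or neighbouring gene models whose levels exceed 50% of their own, so their individual values are uncertain.

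**Figure D4:**
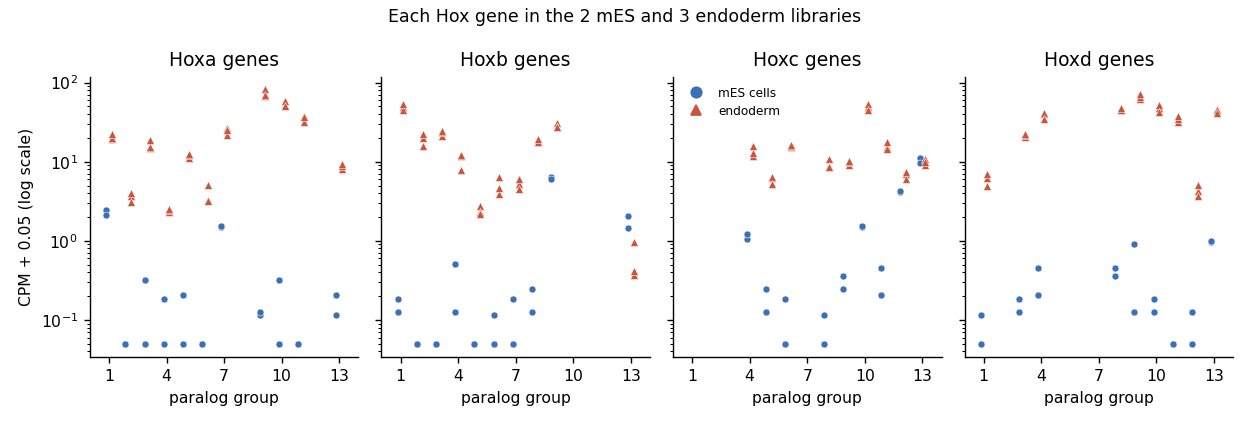
CPM + 0.05 on a log axis of each Hox gene by cluster and paralog group in the 2 mES libraries (circles) and the 3 endoderm libraries (triangles). The endoderm libraries are higher at every gene but Hoxb13, where they are lower, and Hoxc13, where the groups overlap.

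Epithelial and mesenchymal genes rose side by side. Of 23 tested epithelial genes 18 rose (median 1.83), and all 15 tested genes of the mesenchymal transition list rose (median 2.87). Krt18, a keratin of simple epithelia, was at 1.33 and 1.48 CPM in the mES libraries and 245, 242 and 236 CPM in the endoderm libraries (log2 fold change 7.30, SE 0.101, adjusted p 2.9e-18). Its partner Krt8 went from 9.48 ± 0.212 to 295 ± 22.4 CPM (log2 fold change 4.84, SE 0.0918, adjusted p 9.2e-17). Cldn6, a tight junction protein of early endoderm and epiblast, went from 2.88 ± 0.877 to 152 ± 8.04 CPM (log2 fold change 5.62, SE 0.114, adjusted p 1.9e-16), and Epcam from 18.4 ± 1.09 to 96.5 ± 6.33 CPM (log2 fold change 2.27, SE 0.0793, adjusted p 1.1e-13). E-cadherin did not follow the keratins. Cdh1 fell to 46.3% of its mES level, at 594 and 596 CPM in the mES libraries and 276, 280.2 and 270.5 CPM in the endoderm libraries (log2 fold change -1.23, SE 0.0459, adjusted p 2.4e-13). Cdh2, N-cadherin, was at 6.84 and 8.39 CPM in the mES libraries and 188, 173 and 181 CPM in the endoderm libraries (log2 fold change 4.45, SE 0.0872, adjusted p 1.3e-16). Cdh11, a cadherin of mesenchyme, was at 0.133 and 0.233 CPM in the mES libraries and 107, 97.3 and 90.9 CPM in the endoderm libraries (log2 fold change 8.91, SE 0.1895, adjusted p 3.2e-16). On FPKM, Cdh1 still averaged 58.7 in endoderm cultures against 41.3 for Cdh2. Of the transcription factors that repress E-cadherin, Zeb2 rose from 0.228 to 31.98 CPM (log2 fold change 7.04), Snai1 from 5.86 to 38.4 CPM (log2 fold change 2.59) and Twist1 from 0.96999 to 25.4 CPM (log2 fold change 4.58).

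Extracellular matrix genes shifted in both directions. Among 26 tested collagen, laminin and related genes 18 rose and 5 fell (median 2.204). The type IV collagen genes Col4a2 (log2 fold change 5.68) and Col4a5 (6.09) and the fibrillar Col5a1 (3.33) rose. Of the laminin chains Lamb1 rose from 41.5 ± 2.33 to 393 ± 2.82 CPM (log2 fold change 3.12, SE 0.0589, adjusted p 8.9e-17), whereas Lamc1 fell from 818 ± 14.2 to 408 ± 13.97 CPM (log2 fold change -1.13, SE 0.0492, adjusted p 2.0e-12). The linker gene Nid1 fell from 459 ± 4.95 to 49.01 ± 5.09 CPM (log2 fold change -3.35, SE 0.0673, adjusted p 1.7e-16). Col4a1 and Col4a2 share a promoter region and overlap in the annotation, so reads near their start cannot be assigned with certainty.

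Signalling lists differed in their direction. Some of their members also belong to the pluripotency lists, among them Tfcp2l1 (LIF targets), Fgf4 (FGF ligands) and Gdf3 (Nodal and Activin genes). Of 14 tested LIF and Stat3 targets 11 fell (median -1.18). Socs3, the feedback inhibitor of the LIF receptor complex, was at 153 and 157 CPM in the mES libraries and 45.2, 48.6 and 54.6 CPM in the endoderm libraries (log2 fold change -1.77, SE 0.0683, adjusted p 3.9e-13). Stat3 itself did not pass the test, at 152 and 149 CPM against 166, 157 and 173 CPM, though it did on total counts (log2 fold change 0.13, adjusted p 0.0334). Jak1 (0.63) and Junb (1.47) were the members that rose. Of 20 tested FGF ligands and ERK targets 15 rose and 4 fell in endoderm cultures (median 1.54). MEK was inhibited in the mES cells alone, but LIF, Activin A and serum differed too, so the part of MEK inhibition cannot be told apart and was not tested. Dusp6, the phosphatase that dampens ERK, was at 8.1004 and 9.87 CPM in the mES libraries and 206, 213 and 218 CPM in the endoderm libraries (log2 fold change 4.45, SE 0.082996, adjusted p 8.0e-17). Dusp4, a nuclear phosphatase of the same family, was at 0.598 and 0.6995 CPM in the mES libraries and 103.6, 109.7 and 118 CPM in the endoderm libraries (log2 fold change 7.28, SE 0.146, adjusted p 1.7e-16). Egr1, an immediate early gene, was at 0.332 and 0.155 CPM in the mES libraries and 21.5, 23.1 and 27.5 CPM in the endoderm libraries (log2 fold change 6.41, SE 0.271, adjusted p 1.3e-12). Dusp6, Dusp4 and Egr1 were higher in each endoderm library. Fgf4, the ligand of naive cells, fell from 248 ± 14.9 to 5.71 ± 1.06 CPM (log2 fold change -5.55, SE 0.0878, adjusted p 1.5e-17), and Etv5, another ERK target, fell from 526 ± 4.33 to 188 ± 6.901 CPM (log2 fold change -1.61, SE 0.0495, adjusted p 2.2e-14).

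Among 20 tested Nodal and Activin genes 13 rose and 6 fell (median 0.59). The feedback antagonists rose: Lefty1 was at 17.6 and 17.95 CPM in the mES libraries and 130.4, 136 and 156 CPM in the endoderm libraries (log2 fold change 2.86, SE 0.0902, adjusted p 3.0e-14), and Lefty2 went from 135 ± 6.62 to 423 ± 42.5 CPM (log2 fold change 1.53, SE 0.07596, adjusted p 1.1e-11). The co-receptor gene Tdgf1 (Cripto) fell from 499 ± 4.203 to 85.6 ± 0.436 CPM (log2 fold change -2.67, SE 0.0481, adjusted p 5.6e-17), while its relative Cfc1 (Cryptic) rose from 0.0664 to 22.6 CPM (pooled ratio 316, interval 87.3 to 2615). The transducers Smad2 (0.28) and Smad3 (0.39) changed little, and Foxh1 (51.9 to 60.7 CPM) passed the test on total counts alone (adjusted p 0.00738).

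CHIR99021 was present in both media, and 14 of 18 tested Wnt targets and antagonists were higher in endoderm cultures, with 4 lower (median 1.34). Axin2, the general Wnt feedback gene, was at 67.5 and 66.1 CPM in the mES libraries and 140.5, 135 and 153 CPM in the endoderm libraries (log2 fold change 0.97, SE 0.0652, adjusted p 5.4e-10). Lef1, the partner of beta-catenin, was at 2.26 and 1.79 CPM in the mES libraries and 85.6, 82.2 and 94.3 CPM in the endoderm libraries (log2 fold change 5.29, SE 0.1297, adjusted p 1.5e-15). Dkk1, a secreted antagonist, was at 1.06 and 0.6995 CPM in the mES libraries and 80.1, 82.6 and 85.1 CPM in the endoderm libraries (log2 fold change 6.39, SE 0.137, adjusted p 3.6e-16). Axin2 thus differed far less than Lef1 and Dkk1. Notum (-1.02) and Sfrp1 (-2.95), which also restrain Wnt ligands, fell, as did Tcf7l1 (-0.85), a repressor of Wnt targets.

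The labels name no BMP in either medium, but the media differed in serum, with 10% FBS for mES cells and 0.2% for endoderm cultures. Of 15 tested BMP ligands and targets 14 rose (median 3.66, 3.43 bounded). Whether the serum bears on these genes was not tested. Besides Bmp4, Bmp2 rose from 0.283 to 27.7 CPM (log2 fold change 6.43) and Bmp7 from 5.96 to 51.7 CPM (log2 fold change 3.00). The target genes Id1, Id2 and Id3 rose by log2 fold changes of 3.07, 3.43 and 3.01. Msx1, a BMP-induced homeobox gene, was at 0.398 and 0.544 CPM in the mES libraries and 85.99, 88.3 and 110.01 CPM in the endoderm libraries (log2 fold change 7.52, SE 0.213, adjusted p 8.1e-15). Of 12 tested retinoic acid genes 7 were higher and 3 lower, where 42.7% and 39.4% of all genes were. Cyp26a1, the enzyme that degrades retinoic acid in the tail bud and streak, was at 0.133 and 0.0777 CPM in the mES libraries and 73.01, 75.5 and 76.7 CPM in the endoderm libraries (pooled ratio 699.5, interval 239 to 3394). The synthesis gene Aldh1a2 rose from 2.49 ± 0.327 to 6.08 ± 1.45 CPM (log2 fold change 1.157, SE 0.237, adjusted p 2.8e-04). Stra8, a retinoic acid response gene of the germline, fell from 1.84 ± 0.812 to 0.04397 ± 0.0762 CPM (pooled ratio of mES to endoderm 36.9, interval 9.69 to 313).

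The chemokine gene Cxcl12 rose together with its receptor gene Cxcr4, at 0.598 and 0.544 CPM in the mES libraries and 91.7, 110.3 and 100.2 CPM in the endoderm libraries (log2 fold change 7.32, SE 0.167, adjusted p 6.6e-16). Aplnr, the apelin receptor gene of mesoderm and endothelium, rose from 0.105 to 18.1 CPM (pooled ratio 168, interval 57.3 to 817), while Apela, which encodes the ligand Elabela, fell from 18.8 ± 0.625 to 4.53 ± 0.413 CPM (log2 fold change -2.17, SE 0.127, adjusted p 8.8e-11). In all, 5 of 6 genes of this pair of pathways rose. All 9 tested genes of insulin-like growth factor signalling rose (median 3.54, 2.69 bounded). Igfbp4 went from 0.959 ± 0.147 to 134 ± 12.1 CPM (log2 fold change 6.98, SE 0.151, adjusted p 3.8e-16) and the receptor gene Igf1r from 18.5 ± 1.45 to 129.8 ± 2.395 CPM (log2 fold change 2.69, SE 0.07096, adjusted p 3.3e-15).

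**Figure D5:**
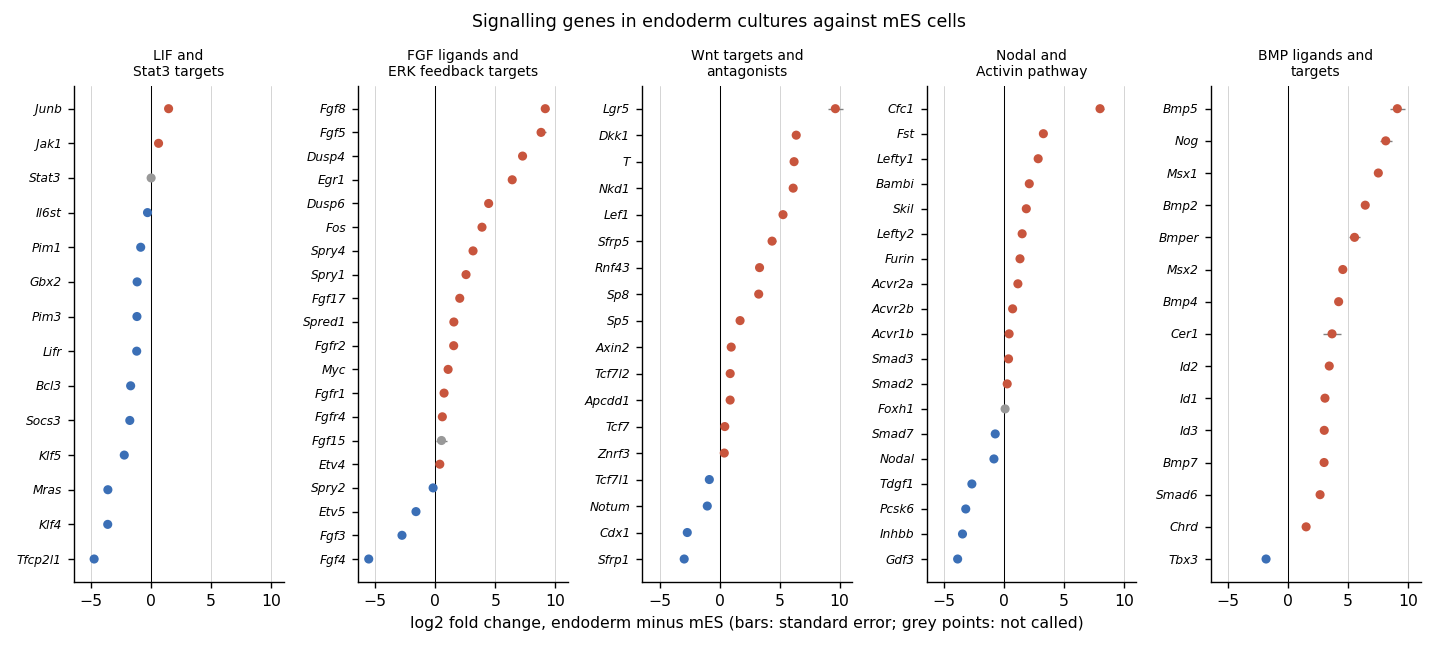
Fitted log2 fold changes (x axis, endoderm minus mES, bars 1 standard error) of tested genes of 5 signalling lists, red for genes called higher, blue for lower and grey for not called. LIF targets lie mostly to the left of 0 and BMP genes mostly to the right; for genes without counts in mES cells, such as Lgr5 and Bmp5, the fitted value depends on the prior count.

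Imprinted genes, expressed from 1 parental allele and concentrated in growth control, formed a group with large increases. Of 25 tested genes 22 rose, against 42.7% of all genes, with a median log2 fold change of 2.53. Peg10 (ENSMUSG00000092035, chromosome 6, 4747306 to 4760517), a retrotransposon-derived gene of the placenta, was at 40.7 and 38.6 CPM in the mES libraries and 2541, 2640.3 and 2893 CPM in the endoderm libraries (log2 fold change 5.96, SE 0.0818, adjusted p 2.9e-18). Peg3 (ENSMUSG00000002265, chromosome 7, 6703892 to 6730421), a zinc-finger gene, was at 53.5 and 51.1 CPM in the mES libraries and 2173, 2169 and 2212 CPM in the endoderm libraries (log2 fold change 5.26, SE 0.0644, adjusted p 1.3e-18). H19, a noncoding RNA of embryonic endoderm and mesoderm, was at 3.39 and 1.55 CPM in the mES libraries and 342, 387 and 423 CPM in the endoderm libraries (log2 fold change 7.11, SE 0.158, adjusted p 5.0e-16). In the endoderm libraries Peg10 and Peg3 were among the abundant transcripts, and H19 had come up from near zero. Igf2, the growth factor gene beside H19, reached 42.3, 50.3 and 81.8 CPM (pooled ratio 816, interval 226 to 6740.2). Its level varied more between endoderm libraries than those of Peg3 and Peg10. Igf2 overlaps an antisense gene model. Gnas rose from 93.2 ± 2.097 to 1022 ± 48.8 CPM (log2 fold change 3.33, SE 0.0628, adjusted p 8.9e-17) and Mest from 35.3 ± 1.34 to 525 ± 16.1 CPM (log2 fold change 3.77, SE 0.0642, adjusted p 3.2e-17). From 1 cluster on chromosome 12, Meg3 went from 189.6 ± 14.98 to 792 ± 82.3 CPM, Rian from 310.1 ± 0.724 to 844 ± 34.7 CPM and Dlk1 from 0.394 ± 0.006897 to 35.7 ± 7.08 CPM. Plagl1 fell (-1.72), as did Ascl2 (-1.56), whose adjusted p was 0.0766 without mES replicate 1. The decrease of Impact (-0.19) was not called on total counts (adjusted p 0.258).

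Genes of the Lin28 and let-7 axis, which times developmental progression, were higher in 8 of 12 tested cases and lower in 3 (median 0.70). Hmga2, a chromatin protein gene and let-7 target, was at 62.9 and 64.7 CPM in the mES libraries and 605, 600.5 and 613 CPM in the endoderm libraries (log2 fold change 3.13, SE 0.0556, adjusted p 4.7e-17). Lin28b rose from 5.38 ± 0.7496 to 45.1 ± 3.22 CPM (log2 fold change 2.95, SE 0.117, adjusted p 5.3e-13). Trim71 (-1.08) and Igf2bp1 (-0.75) fell.

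Antigen presentation and interferon-response genes are weakly expressed in naive stem cells, and 17 of 18 tested genes of this list were higher in endoderm cultures (median 4.05, 3.68 bounded). Psmb8, a subunit of the immunoproteasome, was at 0.0664 and 0 CPM in the mES libraries and 62.5, 71.6 and 72.8 CPM in the endoderm libraries (pooled ratio 1935, interval 347 to 76439). H2-K1, a class I heavy chain gene, was at 6.71 and 7.15 CPM in the mES libraries and 116, 121 and 128 CPM in the endoderm libraries (log2 fold change 4.01, SE 0.0897, adjusted p 5.3e-16). Bst2, the antiviral protein tetherin, was at 9.096 and 8.32 CPM in the mES libraries and 139, 129 and 145 CPM in the endoderm libraries (log2 fold change 3.85, SE 0.0891, adjusted p 7.6e-16). All 3 were higher in each endoderm library, and Psmb8 was represented by 1 count in the mES libraries. B2m, the class I light chain, rose from 10.97 ± 0.452 to 64.1 ± 4.44 CPM (log2 fold change 2.42, SE 0.0929, adjusted p 3.6e-13), Isg15 from 0.0332 to 25.8 CPM (pooled ratio 716, interval 128 to 28299.6) and Irf1, an inducing transcription factor, from 34.5 ± 0.0354 to 171 ± 7.46 CPM (log2 fold change 2.19, SE 0.0651, adjusted p 1.4e-14). Oas1a, an enzyme that senses double-stranded RNA, fell from 51.1 ± 0.191 to 11.9 ± 0.2495 CPM (log2 fold change -2.23, SE 0.0829, adjusted p 2.4e-13). Psmb8, Psmb9, Tap1 and Tap2 lie side by side, and Psmb9 and Tap1 overlap, so counts near their shared promoter are uncertain.

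Interferon-induced genes often carry a promoter element to which interferon regulatory factors bind. The promoter windows of RefSeq (GRCm38.p6, 250 bases before to 50 after each start site) were searched on both strands for GAAANNGAAA, which reads TTTCNNTTTC on the other strand, with overlapping matches allowed. Of 16 listed genes with a window, 8 held a match, as did 1079 of 27025 genes in the RefSeq table (3.99%). By windows, 1131 of 32851 promoters of 300 bases held it (3.44%). The matches are shown in capitals with up to 20 bases on each side, 5′ to 3′ on the strand of the gene, for 3 genes that rose and for Oas1a, which fell although its window holds the same letters.
B2m (chr2:122147528-122147577, + strand): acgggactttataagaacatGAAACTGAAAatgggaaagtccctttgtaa
Isg15 (chr4:156200855-156200916, - strand): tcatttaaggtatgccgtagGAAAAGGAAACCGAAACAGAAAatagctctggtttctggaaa
Bst2 (chr8:71537567-71537622, - strand): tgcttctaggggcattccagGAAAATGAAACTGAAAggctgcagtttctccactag
Oas1a (chr5:120907510-120907565, - strand): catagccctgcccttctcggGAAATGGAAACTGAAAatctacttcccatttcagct
The first matched base lies 139 bases before the start site in B2m, 78 in Isg15, 130 in Bst2 and 20 in Oas1a. H2-T23, Ifit1, Ifit3 and Rsad2 also held a match and rose. H2-D1, H2-K1, Irf1, Irf7, Psmb8, Psmb9, Tap1 and Tapbp held none in this window and rose as well. Since Oas1a was the only gene with a window that did not rise, these genes cannot show whether the match goes with the direction. A match is a description of letters and not a measurement of binding.

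Genes of DNA replication and mitosis were lower in endoderm cultures. Of 27 tested genes 23 fell, against 39.4% of all genes, with a median log2 fold change of -1.10. Mcm5, a subunit of the replicative helicase, was at 739 and 732 CPM in the mES libraries and 224, 236 and 256 CPM in the endoderm libraries (log2 fold change -1.74, SE 0.0564, adjusted p 4.0e-14). Rrm2, a subunit of ribonucleotide reductase, went from 497 ± 6.502 to 136 ± 3.24 CPM (log2 fold change -1.997, SE 0.0473, adjusted p 1.0e-15) and the mitotic cyclin gene Ccnb1 from 358 ± 8.59 to 154 ± 4.54 CPM (log2 fold change -1.34, SE 0.0481, adjusted p 1.4e-13). The levels left ranged from 20.03% of mES for Ccne1 to 91.3% for Bub1. The D-type cyclins, which drive entry into the cycle, changed in opposite directions. Ccnd2 was at 1.33 and 1.55 CPM in the mES libraries and 143.4, 132 and 132 CPM in the endoderm libraries (log2 fold change 6.43, SE 0.114, adjusted p 4.7e-17), whereas Ccnd1 fell from 203 ± 3.32 to 87.1 ± 4.61 CPM (log2 fold change -1.35, SE 0.0567, adjusted p 1.2e-12) and Ccnd3 from 393 ± 3.52 to 164 ± 16.9 CPM (log2 fold change -1.39, SE 0.0666, adjusted p 6.6e-12). The inhibitor gene Cdkn1a rose from 164 ± 0.407 to 304 ± 25.1 CPM (log2 fold change 0.77, SE 0.0646, adjusted p 1.1e-08). It is also a p53 target, and of 15 tested genes of that list 9 fell and 4 rose (median -0.35), where 39.4% and 42.7% of all genes did. Mdm2 was at -0.96 and Trp53 at -0.85. Most replication-dependent histone transcripts lack a poly(A) tail and are poorly captured by poly(A) selection. The histone list holds such genes together with linker and variant histones, and 6 of its 17 genes had enough counts to test, of which 2 rose and 2 fell. The linker histone gene H1f0, which is polyadenylated, rose from 39.8 ± 1.598 to 242 ± 5.92 CPM (log2 fold change 2.47, SE 0.0605, adjusted p 1.4e-15), and the variant genes H2afx (-1.36) and H2afz (-0.91) fell.

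Of 12 tested genes of DNA methylation 6 rose and 5 fell, shares near the 42.7% and 39.4% of all genes, and the median of -0.01 has no secure sign. Uhrf1, which brings the maintenance methyltransferase to replicating DNA, was at 1140.3 and 1116 CPM in the mES libraries and 252, 261 and 266 CPM in the endoderm libraries (log2 fold change -2.24, SE 0.0491, adjusted p 4.2e-16). Tet1, an enzyme that oxidises methylcytosine, was at 425 and 422 CPM in the mES libraries and 61.002, 75.2 and 64.7 CPM in the endoderm libraries (log2 fold change -2.78, SE 0.0674, adjusted p 1.3e-15). Dnmt3a, a de novo methyltransferase, was at 50.6 and 45.5 CPM in the mES libraries and 188, 190.5 and 197 CPM in the endoderm libraries (log2 fold change 1.87, SE 0.0645, adjusted p 9.2e-14). Tet2 fell with Tet1 (-3.53) and Tet3 rose (3.20). Germline genes, many of which are silenced by promoter methylation in somatic cells, were lower in 11 of 19 tested cases and higher in 5 (median -1.17). Hormad1, a meiotic chromosome protein, fell from 34.5 ± 1.43 to 1.36 ± 0.0368 CPM (log2 fold change -4.78, SE 0.137, adjusted p 9.1e-15), and Dazl, an RNA-binding protein of germ cells, from 19.7 ± 2.59 to 2.52 ± 0.498 CPM (log2 fold change -3.07, SE 0.158, adjusted p 1.7e-11). Tdrkh, a factor of the piRNA pathway, rose from 0.715 ± 0.0218 to 11.3 ± 0.255 CPM (log2 fold change 3.84, SE 0.215, adjusted p 5.0e-11). Of 5 tested genes of the 2-cell-like state 3 rose, all from low levels, Zscan4c going from 1.21 ± 0.489 to 2.67 ± 0.499 CPM (log2 fold change 1.05, SE 0.307, adjusted p 0.004801). Its adjusted p was 0.111 without mES replicate 1 and 0.0548 by DESeq2. Zscan4 genes are near-identical copies, so their separate counts are uncertain.

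Lists of energy metabolism held genes that fell and genes that rose. Of 21 tested glycolysis genes 14 fell and 4 rose (median -0.43). Hk2, a hexokinase, was at 475 and 470.4 CPM in the mES libraries and 106, 116 and 118 CPM in the endoderm libraries (log2 fold change -2.19, SE 0.0546, adjusted p 1.8e-15), and Ldhb fell from 421 ± 6.16 to 139 ± 5.64 CPM (log2 fold change -1.72, SE 0.0513, adjusted p 1.5e-14). Eno3, the muscle enolase, rose from 10.1 ± 0.871 to 62.9 ± 5.28 CPM (log2 fold change 2.52, SE 0.0999, adjusted p 5.4e-13) and the lactate exporter gene Slc16a3 from 33.6 ± 1.66 to 141 ± 33.6 CPM (log2 fold change 1.95, SE 0.151, adjusted p 3.5e-09). Of 25 nuclear genes of oxidative phosphorylation 21 fell (median -0.38), and 16 did when libraries were scaled by total counts. Atp5b, a subunit of ATP synthase, went from 2294 ± 7.55 to 1451 ± 16.03 CPM (log2 fold change -0.78, SE 0.0459, adjusted p 8.9e-11) and Cox5a from 224 ± 7.2005 to 99.9 ± 6.24 CPM (log2 fold change -1.29, SE 0.0573, adjusted p 2.4e-12). Of 8 tested mitochondrial genes 5 rose (median 0.26), with mt-Co1 going from 4063 ± 213 to 5498 ± 210.1 CPM (log2 fold change 0.31, SE 0.0516, adjusted p 3.2e-05). mt-Co2, which lies on the same mitochondrial transcript as mt-Co1, averaged 0.455 CPM in the same endoderm libraries, so values of single mitochondrial genes are uncertain. Of 21 tested sterol and lipid synthesis genes 13 rose (median 0.31), led by Hsd17b7 (1.68) and Cyp51 (1.33).

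Of 15 tested heat shock and early response genes 7 were higher and 7 lower, shares near the 42.7% and 39.4% of all genes tested. Hsp90aa1, an inducible chaperone, was at 3608 and 3809 CPM in the mES libraries and 1161, 1150.1 and 1029.6 CPM in the endoderm libraries (log2 fold change -1.86, SE 0.0544, adjusted p 1.2e-14), and Hspb1 fell from 363 ± 3.71 to 57.5 ± 7.79 CPM (log2 fold change -2.78, SE 0.0768, adjusted p 5.8e-15). Of the early response genes, Jun was at 1.99 and 1.399 CPM in the mES libraries and 76.8, 92.3 and 103 CPM in the endoderm libraries (log2 fold change 5.60, SE 0.181, adjusted p 4.1e-14), Fos went from 0.904 ± 0.151 to 14.6 ± 1.72 CPM (log2 fold change 3.89, SE 0.218, adjusted p 5.0e-11) and Atf3 from 0.804 ± 0.292 to 25.05 ± 1.51 CPM (log2 fold change 4.85, SE 0.191, adjusted p 5.0e-13).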

How the data were processed

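Poly(A)-selected RNA from 2 wild-type mES and 3 wild-type endoderm samples was sequenced from stranded libraries, according to the labels. The deposited count tables hold whole-number counts per Ensembl gene without normalization, and the FPKM tables, which the authors deposited for the same libraries, hold FPKM values (fragments scaled by gene length and library total) with symbols and positions. The submitters' processing notes name cutadapt 1.16, STAR, Cufflinks 2.2.1 and the mm10 build. The counting tool and its use of strand are not given in the sources used here, so overlapping and antisense genes are uncertain, and of genes named in the text Col4a2, Evx1, H2-T23, Irf7, Psmb9, Slc16a3, 2310043M15Rik, Hoxaas3 and the Hox genes listed above carry an overlapping gene model at 50% or more of their own level. Positions are given 1-based, and 93.6% of identifiers found in GENCODE M21 had the same coordinates.

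The tables were joined on 55055 identifiers. The test was edgeR 4.0.16's quasi-likelihood test (R 4.3.3), after filterByExpr and TMM scaling, adjusted by Benjamini-Hochberg over all 15414 genes tested. A gene is called at an adjusted p under 0.05. CPM is the count divided by the library total in M (mega), given as mean ± SD with n = 2 for mES cells and n = 3 for endoderm cultures. A gene without counts in a group is bounded at a floor of 3 counts per library, 0.198 to 0.243 CPM. With 1 to 3 counts in all, the ratio of pooled CPM is given with an exact 95% interval. Intervals and floors cover counting error only. FPKM was used to compare levels between genes within the endoderm table, since the tables may have been normalized separately.

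Named genes are the 10 per direction with the smallest p, and the 10 with the largest change at a mean of at least 20 CPM, among calls of at least 4-fold without overlap between libraries, the 10 with most counts per group, and members of 41 gene lists. The members and lists were chosen with earlier results of these data known. Of the listed symbols, Dux, Eif1a2 and mt-Atp6 were not analysed here. Some genes that this rule names are not reported here.

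On simulated counts of these libraries (10 simulations), edgeR recovered 90% of 2-fold and 99.1% of 4-fold changes, and 6.11% of calls were false. In the simulations a small set of genes above 1 CPM was changed, in both directions equally, and all others had equal group means. In the data 82.1% of the genes tested were called, so these rates need not hold for the comparison itself. The alternatives were RLE factors, total counts alone, no filter, DESeq2 1.42.0, a minimum of 10 counts in every library, all 10 mES and endoderm libraries in 1 fit, the replicate number as a block, thinning to the smallest library, edgeR's glmTreat against 4-fold, and each library left out.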

Additional observations from a re-analysis of the deposited data

How the results depend on the processing

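The number of genes called was 12650 and lay between 9874 (at least 10 counts in every library, which tests fewer genes) and 13961 (no filter) under the alternatives on all libraries, and numbered 11648 to 12590 when 1 library was left out. Large increases numbered 2279 to 2579 and large decreases 1201 to 1258 with 1 library left out. The filter of 10 counts in every library, which removes genes silent in 1 group, left 942 large increases and 512 large decreases. Of the calls that could be tested again, 89.7% to 99.2% were kept with their sign under each alternative, and no gene was called in opposite directions. glmTreat against 4-fold called 1911 higher and 955 lower. Calls were 52.03% higher, and 57.4% on total counts alone.

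Deviations of libraries with the same replicate number correlated between -0.00169 and 0.00558, so no pairing was seen. With 2 mES libraries the deviations mirror each other. These values therefore cannot show whether libraries of the same number were prepared together. With the replicate number as a block 12595 genes were called, with 2408 large increases and 1212 large decreases. Leaving 1 mES library out leaves that group with a single library, assumed to vary like the endoderm libraries.

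Across 41 list medians and 13 alternatives, 357 values stayed within the replicate spread, 164 moved beyond it with the same sign, and 12 changed sign. With 10 counts in every library the medians of regional gut factors, neural and cardiac genes were -0.26, -2.34 and -0.65, since genes silent in mES cells were then not tested. The DNA methylation median was 0.113 on total counts, 0.00808 without a filter, 0.0453 with 10 counts in every library, and from -0.0369 to 0.0161 with 1 library left out. The histone median was -0.28 without a filter and -0.33 by DESeq2, and the heat shock median 0.0592 on total counts. Trh was at 0.00186 on total counts. Stat3, which was not called, was at -0.007303 with RLE factors, -0.00536 by DESeq2, -0.0291 with the block, and from -0.0182 to 0.0599 with 1 library left out. The causes of these sign changes were otherwise not tested. At these depths a gene under about 1 CPM rests on a few counts per library.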

Other observations

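Several further groups stood out after the values were seen, and their counts describe that choice. Genes of the actin cytoskeleton and contractile apparatus were higher in 23 of 26 tested cases, with a median log2 fold change of 3.27. Zyx, a focal adhesion protein, was at 4.58 and 4.66 CPM in the mES libraries and 258, 247 and 291 CPM in the endoderm libraries (log2 fold change 5.72, SE 0.109, adjusted p 9.2e-17). Cnn2, a calponin, was at 33.1 and 32.3 CPM in the mES libraries and 321, 323 and 359 CPM in the endoderm libraries (log2 fold change 3.23, SE 0.0722, adjusted p 5.3e-16), and Flna, filamin A, rose from 536 ± 2.14 to 1567 ± 70.2 CPM (log2 fold change 1.43, SE 0.0547, adjusted p 3.5e-13). Ccn1, a matricellular protein gene that responds to Yap, rose from 9.44 ± 1.05 to 293 ± 32.1 CPM (log2 fold change 4.84, SE 0.111, adjusted p 7.5e-16), and Ankrd1, another such gene, had no counts in mES cells and reached 21.2 ± 3.51 CPM. The endoderm libraries were higher for each of these genes.

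Enzymes and metal-binding genes of naive cells formed a group on the other side, with 17 of 17 chosen genes lower. Ckb, brain creatine kinase, was at 1035 and 1007 CPM in the mES libraries and 42.02, 41.4 and 52.2 CPM in the endoderm libraries (log2 fold change -4.62, SE 0.0769, adjusted p 2.6e-17). Tdh, which breaks down threonine in mouse stem cells, was at 878 and 887 CPM in the mES libraries and 87.8, 97.4 and 86.4 CPM in the endoderm libraries (log2 fold change -3.41, SE 0.0558, adjusted p 2.0e-17). The metallothionein genes Mt1 and Mt2 fell from 195 ± 6.74 to 14.96 ± 1.91 CPM and from 345 ± 9.51 to 18.2 ± 1.56 CPM. Platr genes, long noncoding RNAs catalogued in pluripotent cells, were lower in 13 of 17 tested cases and higher in 2 (median -2.86). Platr10 fell from 57.9 ± 3.85 to 8.58 ± 1.72 CPM (log2 fold change -2.86, SE 0.111, adjusted p 4.1e-13).

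A run of zinc-finger genes on chromosome 4 (mm10, 145510759 to 147848366) fell together. Of 18 tested Zfp genes there 17 fell and 1, Zfp933, rose (median -3.23). Zfp990 was at 284 and 309 CPM in the mES libraries and 62.5, 53.9 and 47.1 CPM in the endoderm libraries (log2 fold change -2.57, SE 0.07703, adjusted p 1.6e-14), and Zfp979 was at 152 and 156 CPM in the mES libraries and 19.8, 17.9 and 13.1 CPM in the endoderm libraries (log2 fold change -3.31, SE 0.0944, adjusted p 8.5e-15). These genes are close paralogs whose reads may be split between copies, so single values are uncertain. By chromosome, the median log2 fold change over tested genes was highest on X at 0.30 (547 genes) and lowest on 11 at -0.11 (1221 genes). Of 296 tested intergenic long noncoding RNAs 100 rose and 138 fell, where 42.7% and 39.4% of all genes tested did.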
